A study of Mus musculus with 6 samples.

Results

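The genes described here are those of lipolysis and of the lipid droplet coat in brown adipose tissue (BAT): Pnpla2, Lipe, Mgll, Abhd5, G0s2, Plin1, Plin2, Plin5, Cidea and Cidec. They were chosen by symbol. Each of the 10 symbols stood on 1 row of the 23282 rows of the count table, and all 10 passed the filter on low counts. RNA was taken from the BAT of male C57BL/6N mice at 5 weeks of age, 3 wild-type (WT) and 3 Letmd1 knockout (KO), and sequenced as QuantSeq libraries, in which reads come from mRNA 3′ ends and a count does not scale with gene length. The KO mice are homozygous for a null allele of the knockout-first type, in which a lacZ and neomycin cassette sits in an intron of Letmd1. The allele is present from conception and in every tissue, so the KO mice are not a model of loss in brown adipocytes alone. WT and KO mice shared strain, sex, age and tissue, and no drug or cold treatment is named for these samples in the sources used here.

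Brown adipocytes hold many small lipid droplets, from which fatty acids are released as fuel and as activators of uncoupled respiration. Triglyceride is split in a chain of steps, in which ATGL (Pnpla2) removes the first fatty acid, hormone-sensitive lipase (Lipe) removes the next and monoglyceride lipase (Mgll) removes the last, while ABHD5 activates ATGL and G0S2 inhibits it. Perilipins cover the droplet and gate the access of these enzymes, with perilipin 1 releasing ABHD5 when protein kinase A is active, and CIDEA and CIDEC sit where droplets touch and let lipid pass from the smaller into the larger droplet.

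Letmd1 had 5658, 6490 and 5266 counts in the WT mice, and 0, 0 and 1 counts in the KO mice, which matched the genotype labels of all 6 mice. Total counts were between 6669577 and 14574273 per mouse. Ucp1, the uncoupling protein that defines brown adipocytes, was present in both genotypes, at 6320 ± 518 CPM (read counts relative to the library size, itself adjusted by the TMM method of edgeR, mean ± SD, n = 3) in WT BAT and 382 ± 114 CPM in KO BAT. Cox7a1, a subunit of cytochrome c oxidase listed here as a brown adipocyte marker though not particular to these cells, was at 1429 ± 18.3 CPM and 556 ± 145 CPM. The TMM factors were between 0.852 and 0.887 in WT mice and between 1.13 and 1.17 in KO mice. Scaling by library size alone therefore moved the fold changes upwards, and their median over all genes, on the log2 scale, went from 0.033 to 0.45. Scaling to 8 adipocyte markers moved that median to 0.84. KO replicate 2 stood apart from the other KO mice in several of the values below, and the fold changes that moved most with it are also given without it.

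With TMM, all 10 genes differed between the genotypes (adjusted p under 0.05, quasi-likelihood test of edgeR, p-values adjusted by Benjamini-Hochberg over 12995 genes). Of them, 9 were lower and 1, Plin2, was higher in KO BAT. Lipe turned higher under quantile normalization, which the authors name for their own counts, and, without passing the threshold, under scaling to adipocyte markers. With the latter scaling 5 of the 10 genes passed, 4 of them lower. The call of Plin2 was lost without WT replicate 1, WT replicate 2 or KO replicate 1. Over all genes tested, 46.0% passed the same threshold with TMM, 22.3% in the lower and 23.7% in the higher direction. With library size alone, 1371 genes were lower and 5891 higher. The values of WT and KO mice did not overlap for any of the 10 genes, as was the case for 57.3% of all genes. The median log2 fold change (KO minus WT) of the 10 genes was -1.18, beside 0.033 for all genes. It was -0.76 with library size alone, -0.73 after quantile normalization (all genes -0.053) and -0.35 with adipocyte marker scaling. A fall of more than 2-fold was measured for 6 of them with TMM, Pnpla2, Mgll, G0s2, Plin5, Cidea and Cidec. With library size alone this held for 4 of them (Pnpla2, Mgll, Cidea and Cidec), and for 1, Cidec, after quantile normalization and with adipocyte marker scaling. Together the 10 genes took between 1.48% and 1.52% of all counts in WT mice and between 0.845% and 0.886% in KO mice. In bulk tissue, fewer cells of a type and less RNA per cell cannot be told apart.

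**Figure D1:**
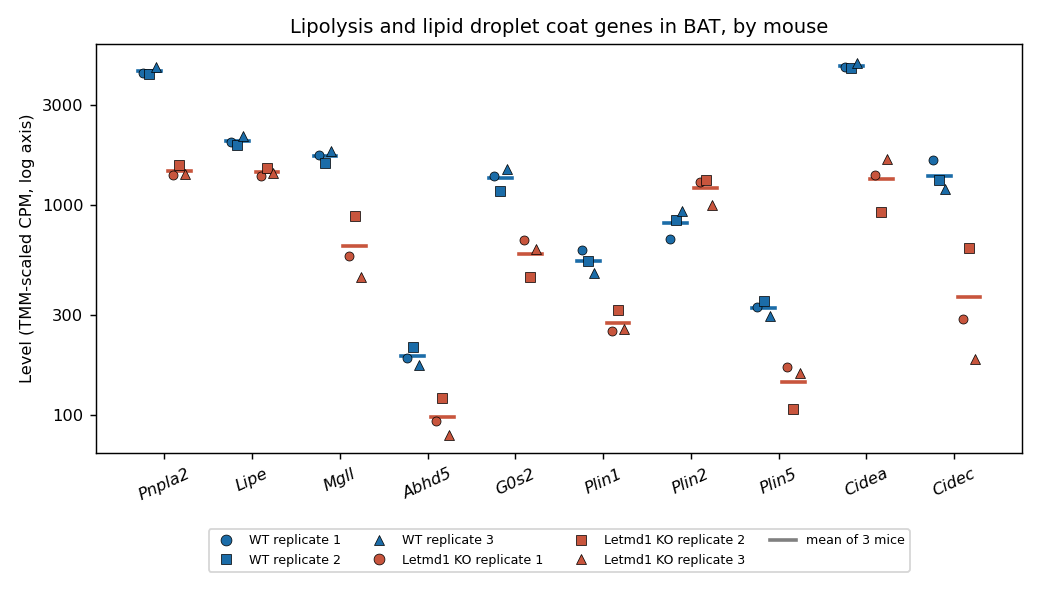
Level of each of the 10 genes in each mouse, in TMM-scaled CPM on a log axis, with WT mice in blue, Letmd1 KO mice in red, a marker shape for each replicate number and a bar at the mean of 3 mice. The KO points lie below all WT points for 9 genes and above them for Plin2, and the KO points of Cidec spread most, from 185 to 624 CPM. Under quantile normalization or scaling to adipocyte markers the mean of Lipe was higher in KO BAT.

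Pnpla2, which encodes the rate-limiting triglyceride lipase, was at 4238, 4214 and 4552 CPM in the WT mice and at 1393, 1552 and 1406 CPM in the KO mice. Each KO mouse lay far below each WT mouse, and the spread within a genotype was small. Its mean fell from 4335 ± 189 CPM (SD, n = 3) to 1450 ± 88.4 CPM, a log2 fold change of -1.58 ± 0.13 (SE, adjusted p = 2.6e-05, edgeR). This fall was smaller under other scalings, at -0.70 after quantile normalization and -0.78 with adipocyte marker scaling, and passed the threshold in both. In WT BAT, Pnpla2 was the 20th most abundant of the genes tested, and in KO BAT it was the 42nd.

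Lipe, the diglyceride lipase that is also a target of protein kinase A, was at 1992, 1935 and 2135 CPM in the WT mice and at 1381, 1497 and 1416 CPM in the KO mice. The groups did not overlap, but the change was the smallest among the 9 genes that were lower with TMM. Its log2 fold change was -0.50 ± 0.12 (SE, adjusted p = 0.0085, edgeR) with TMM, and this direction depended on the scaling. It was -0.078 (adjusted p = 0.60) with library size alone, 0.33 (adjusted p = 0.041, limma) after quantile normalization and 0.31 (adjusted p = 0.16) after scaling to adipocyte markers. Relative to the median of all genes, Lipe lay at -0.53 with TMM, with library size alone and with adipocyte marker scaling, and at 0.38 after quantile normalization.

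Mgll, which releases the last fatty acid and glycerol, was at 1727, 1590 and 1805 CPM in the WT mice and at 569, 888 and 455 CPM in the KO mice. KO replicate 2 was the highest of the KO mice and still lay well below the WT mice. The log2 fold change of Mgll was -1.42 ± 0.22 (SE, adjusted p = 0.00084, edgeR), and -1.74 without KO replicate 2. It was -0.75 after quantile normalization and -0.66 with adipocyte marker scaling.

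The lipases changed by unequal amounts, and so did their proportions within each mouse, a measure that no library scaling enters. The ratio of Lipe to Pnpla2 counts was 0.470, 0.459 and 0.469 in the WT mice and 0.991, 0.964 and 1.01 in the KO mice. Its values were nearly constant within a genotype, and the KO mice stood at 2.12-fold the WT ratio, a log2 difference of 1.08 that remained 1.03 in quantile-normalized values (two-sided exact permutation test, p = 0.1, the smallest p that 3 mice against 3 allow, and 0.2 after adjustment over 8 ratios). Lipe made up 25.1% ± 0.070 (SD, n = 3) of the summed counts of the 3 lipases in WT BAT and 40.8% ± 2.63 in KO BAT. Pnpla2 went from 53.8% ± 0.61 to 41.3% ± 1.76 of that sum. The ratio of Mgll to Pnpla2 did not separate the genotypes, at 0.407, 0.377 and 0.396 in WT mice and 0.409, 0.572 and 0.324 in KO mice (p = 0.7, two-sided exact permutation test).

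**Figure D2:**
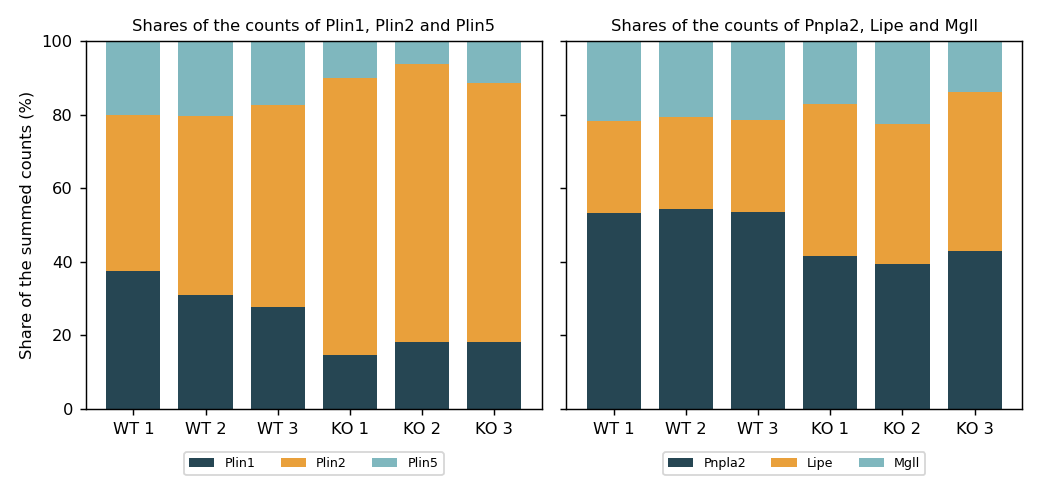
Share, in percent, of the summed counts of Plin1, Plin2 and Plin5 (left) and of Pnpla2, Lipe and Mgll (right) that each gene took in each mouse, WT 1 to 3 and Letmd1 KO 1 to 3, as stacked bars. Plin2 took between 42.3% and 54.7% of the perilipin counts in WT mice and between 70.6% and 75.7% in KO mice, and Lipe took a larger share of the lipase counts in every KO mouse.

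Abhd5, the coactivator of ATGL, was the least abundant of the 10 genes, at 188, 210.2 and 174 CPM in the WT mice and 93.8, 121 and 80.6 CPM in the KO mice. G0s2, the inhibitor of ATGL, was at 1376, 1172 and 1483 CPM in the WT mice and 682, 453 and 620.1 CPM in the KO mice. Activator and inhibitor were thus both lower in every KO mouse than in any WT mouse. Abhd5 had a log2 fold change of -0.96 ± 0.15 (SE, adjusted p = 0.00096, edgeR) and G0s2 one of -1.20 ± 0.17 (SE, adjusted p = 0.00048, edgeR). After scaling to adipocyte markers, neither passed the threshold (-0.17 and -0.36). After quantile normalization G0s2 was at -0.54.

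Relative to Pnpla2, the coactivator was higher in KO BAT. The ratio of Abhd5 to Pnpla2 was 0.0443, 0.0499 and 0.0382 in the WT mice and 0.0674, 0.0778 and 0.0574 in the KO mice, a log2 difference of 0.61 (p = 0.1, two-sided exact permutation test), which turned to -0.066 in quantile-normalized values. The ratio of G0s2 to Pnpla2 was 0.325, 0.278 and 0.326 in the WT mice and 0.490, 0.292 and 0.441 in the KO mice. KO replicate 2 fell among the WT values here, and the log2 difference of 0.37 had p = 0.3 in the exact permutation test. Without that mouse it was 0.59.

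Plin1, the perilipin of adipocytes that holds ABHD5 until protein kinase A releases it, was at 612, 541 and 475 CPM in the WT mice and 251, 317 and 256 CPM in the KO mice. Plin5, the perilipin of oxidative tissues that tethers droplets to mitochondria, was at 326, 351 and 297 CPM in the WT mice and 169, 107 and 158 CPM in the KO mice. For both, the highest KO mouse lay below the lowest WT mouse. Plin1 had a log2 fold change of -0.98 ± 0.14 (SE, adjusted p = 0.00047, edgeR) and Plin5 one of -1.17 ± 0.17 (SE, adjusted p = 0.00050, edgeR). With adipocyte marker scaling these were -0.19 and -0.33, and neither passed the threshold. Plin1 was at -0.62 after quantile normalization.

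Plin2, the perilipin found on droplets of nearly all cell types and stabilized by the lipid it covers, went the other way. It was at 687, 847 and 933 CPM in the WT mice and at 1284, 1320 and 997 CPM in the KO mice. KO replicate 3 exceeded WT replicate 3 by a narrow margin, and the other KO mice lay well above all WT mice. Plin2 rose from 823 ± 125 CPM (SD, n = 3) to 1200 ± 177 CPM, a log2 fold change of 0.55 ± 0.16 (SE, adjusted p = 0.021, edgeR), and from the 182nd to the 63rd most abundant gene. The call depended on which mouse was left out. It held without WT replicate 3 (0.63), KO replicate 2 (0.47) or KO replicate 3 (0.66), and was lost without WT replicate 1 (0.42, adjusted p = 0.087), without WT replicate 2 (0.55, adjusted p = 0.061) and without KO replicate 1 (0.49, adjusted p = 0.073). The other scalings gave larger values, 0.96 with library size alone, 1.24 after quantile normalization and 1.34 after scaling to adipocyte markers.

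The make-up of the perilipin coat transcripts changed with it. The ratio of Plin2 to Plin1 counts was 1.12, 1.57 and 1.97 in the WT mice and 5.12, 4.16 and 3.89 in the KO mice. No KO mouse came near the WT values, and the log2 difference was 1.53, or 1.86 in quantile-normalized values (p = 0.1 in the two-sided exact permutation test, 0.2 after adjustment over 8 ratios). Plin2 rose from 48.6% ± 6.23 (SD, n = 3) to 73.9% ± 2.83 of the summed counts of the 3 perilipins, while Plin1 went from 32.2% ± 5.00 to 17% ± 1.99 and Plin5 from 19.2% ± 1.56 to 9.08% ± 2.63. The ratio of Plin5 to Plin1 did not separate the genotypes (log2 difference -0.21, p = 0.8, exact permutation test), and without KO replicate 2 it was 0.099.

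Plin2 is also made by lipid-laden macrophages. A list of 13 macrophage markers, all higher in KO BAT, summed to between 185 and 262 CPM in WT mice and to 1763, 3677 and 1521 CPM in the KO mice. Lgals3 and Gpnmb had the highest means of the list over all mice, with Lgals3 at 8.37 CPM in WT BAT and 561 CPM in KO BAT. Gpnmb was at 2.81 CPM in WT BAT and was high mainly in KO replicate 2 (63.0, 1013 and 40.9 CPM in the KO mice). KO replicate 2 had the highest sum and the highest Plin2. Without that mouse the log2 fold change of Plin2 was 0.47 (adjusted p = 0.044, edgeR). The part of macrophage RNA in the level of Plin2 was not tested.

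Cidea, the CIDE protein of brown fat, was the most abundant of the 10 genes in WT BAT and the 18th most abundant of all. It was at 4539, 4501 and 4757 CPM in the WT mice and at 1382, 929 and 1656 CPM in the KO mice. The WT mice were nearly equal, with a coefficient of variation of 3.0%, whereas the KO mice spread over 27.7%. Cidea fell by 1.80 ± 0.21 on the log2 scale (SE, adjusted p = 0.00014, edgeR), and to the 55th place in abundance. Without KO replicate 2 the log2 fold change was -1.60, and it was -0.98 after quantile normalization and -0.96 with adipocyte marker scaling. The gene lies on chromosome 18 of GRCm38, from 67343604 to 67367785 on the plus strand.

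Cidec, which promotes large droplets in white fat, had the widest spread among KO mice. It was at 1637, 1309 and 1198 CPM in the WT mice and at 287, 624 and 185 CPM in the KO mice. KO replicate 2 had 3.38-fold the level of KO replicate 3, though it lay below every WT mouse. The log2 fold change of Cidec was -1.92 ± 0.38 (SE, adjusted p = 0.0029, edgeR), and -2.55 without KO replicate 2. With adipocyte marker scaling it was -1.19. The ratio of Cidec to Cidea was 0.361, 0.291 and 0.252 in the WT mice and 0.208, 0.671 and 0.112 in the KO mice. KO replicate 2 lay above the WT mice and the other KO mice below them, so that the log2 difference of -0.25 (p = 0.8, exact permutation test) became -0.97 without KO replicate 2 and 0.33 without KO replicate 3.

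**Figure D3:**
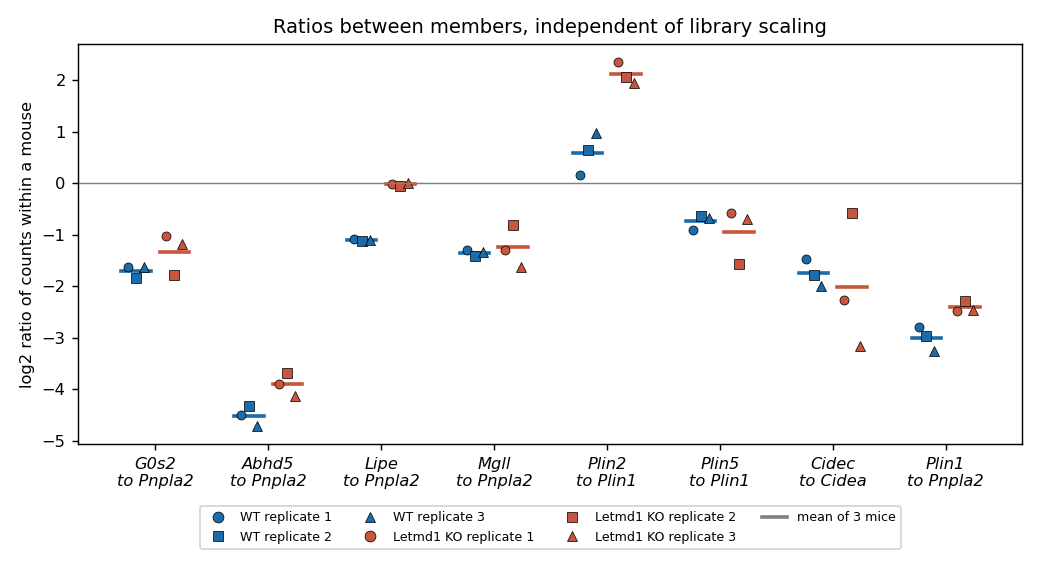
Log2 ratio of the counts of pairs of the 10 genes within each mouse, with WT mice in blue, Letmd1 KO mice in red and a bar at the mean of 3 mice. The genotypes do not overlap for Abhd5, Lipe and Plin1 relative to Pnpla2 and for Plin2 relative to Plin1, and they overlap for the other 4 ratios. In quantile-normalized values Abhd5 relative to Pnpla2 did not keep its direction, and the difference of Plin1 relative to Pnpla2 went from 0.60 to 0.078.

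Within the KO group, replicate 2 was the highest mouse for 7 genes (Pnpla2, Lipe, Mgll, Abhd5, Plin1, Plin2 and Cidec) and the lowest for the other 3 (G0s2, Plin5 and Cidea). The coefficient of variation was larger among KO than among WT mice for 8 of the 10 genes, and for 45.0% of all genes tested. KO replicate 2 also stood out in genes outside the 10. Adipoq, the adipocyte hormone adiponectin, was at 1366 CPM in it and at 502 and 562 CPM in the other KO mice. Retn, a hormone of white adipocytes, was at 395 CPM in it and at 90.8 and 74.5 CPM in the others, and Gpnmb, a gene of lipid-laden macrophages, at 1013 CPM against 63.0 and 40.9 CPM. Without KO replicate 2, the log2 fold change of Adipoq went from -1.41 to -2.02, that of Retn from 1.79 to 0.62 and that of Gpnmb from 7.03 to 4.19. Ucp1 was lowest in it, at 255 CPM against 414 and 476 CPM. The part of these differences in the values of the 10 genes was not tested. Without KO replicate 2, all 10 genes kept their direction and passed the threshold with TMM.

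The order of the levels changed between the genotypes. In WT BAT it ran from Cidea and Pnpla2, whose values overlapped, through Lipe and then Mgll, Cidec and G0s2, each overlapping the next, to Plin2, Plin1, Plin5 and Abhd5, which were separated. In KO BAT, Pnpla2, Lipe, Cidea and Plin2 overlapped in turn at means between 1200 and 1450 CPM, followed by Mgll, G0s2, Cidec and Plin1, again overlapping in turn, and then by Plin5 and Abhd5, which also overlapped. Plin2 went from 4.76% ± 0.70 (SD, n = 3) to 15.9% ± 1.87 of the summed counts of the 10 genes, and Cidea from 26.6% ± 0.40 to 17.8% ± 5.53.

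**Figure D4:**
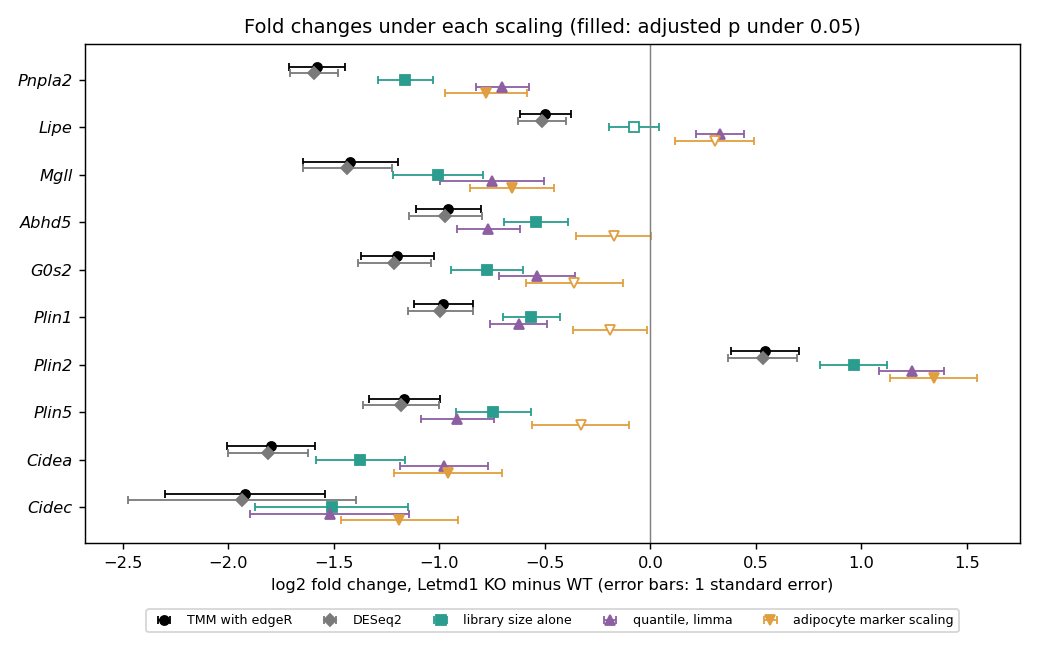
Log2 fold change (KO minus WT) of each of the 10 genes with 1 standard error, under TMM with edgeR and under 4 other scalings, with filled symbols where the adjusted p was under 0.05. Plin2 lies to the right of 0 under all 5, Lipe crosses 0 under quantile normalization and adipocyte marker scaling, and the other 8 genes lie to the left of 0 under all 5.

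In the GENCODE annotation of GRCm38, the build that the submitters' processing notes give as mm10, several of the genes share chromosomes without being neighbours. Lipe (25379527 to 25398710, minus strand), Plin1 (79720218 to 79732903, minus strand) and Pnpla2 (141455198 to 141460743, plus strand) lie on chromosome 7. Mgll (88724412 to 88828360, plus strand) and Cidec (113424634 to 113435760, minus strand) lie on chromosome 6. Plin2 (86648386 to 86670060, minus strand) is on chromosome 4, G0s2 (193272161 to 193273217, minus strand) on chromosome 1, Abhd5 (122351608 to 122381524, plus strand) on chromosome 9 and Plin5 (56111601 to 56117596, minus strand) on chromosome 17. Exons of Lipe overlap an antisense gene, 4732471J01Rik, which had between 9 and 48 counts per mouse, beside at least 11323 for Lipe. Exons of Abhd5 overlap the antisense gene A730085K08Rik, which had at most 1 count. Exons of Mgll overlap the antisense gene Gm26588, whose reads were not analysed here. Use of strand in counting is not given in the sources used here, so reads of such pairs may not be separated.

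The promoters of 9 of the 10 genes, all but Cidea, were read from RefSeq (GRCm38.p6). They came in 13 windows of 300 bases that run from 250 bases before to 50 bases after an annotated start. CACGTG, the E-box bound by USF and MITF/TFE family factors, was found in 3 of the 13 windows (Plin2, Mgll and Lipe). It was in 7.15% of the 32851 windows of all genes (both strands, the motif being its own reverse complement). These sequences are shown because they belong to Plin2, which rose, and to genes of the lipase chain that fell by different amounts with TMM. The start of Pnpla2, the gene of the first step, is shown beside them. Each runs 5′ to 3′ from 180 bases before to 10 bases after the start, with CACGTG in capitals.
Plin2 (chr4:86670050-86670239, minus strand): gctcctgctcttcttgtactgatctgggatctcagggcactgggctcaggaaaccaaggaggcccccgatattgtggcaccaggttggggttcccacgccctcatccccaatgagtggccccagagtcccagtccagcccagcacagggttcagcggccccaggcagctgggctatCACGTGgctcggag
Mgll (chr6:88724232-88724421, plus strand): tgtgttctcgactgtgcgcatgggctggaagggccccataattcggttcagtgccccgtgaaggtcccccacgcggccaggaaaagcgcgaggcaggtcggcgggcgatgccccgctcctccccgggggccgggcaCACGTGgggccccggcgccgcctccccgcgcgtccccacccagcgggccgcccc
Lipe (chr7:25395978-25396167, minus strand): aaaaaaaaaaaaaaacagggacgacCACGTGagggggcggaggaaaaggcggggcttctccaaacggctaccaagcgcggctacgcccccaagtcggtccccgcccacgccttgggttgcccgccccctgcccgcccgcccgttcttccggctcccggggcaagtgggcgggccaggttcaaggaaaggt
Pnpla2 (chr7:141455008-141455197, plus strand): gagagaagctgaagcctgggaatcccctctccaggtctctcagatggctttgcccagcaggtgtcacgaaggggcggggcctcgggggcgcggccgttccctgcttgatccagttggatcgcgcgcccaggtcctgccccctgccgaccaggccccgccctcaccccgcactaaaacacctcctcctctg
The motif began 4 bases before the start in Plin2, 44 before it in Mgll and 155 before it in Lipe. Of the genes that hold it, Plin2 was higher, Mgll lower and Lipe lower with TMM but higher under quantile normalization. The part of the motif in these values was not tested. AGGTCA, a half-site of nuclear receptors, was found in 4 of the 13 windows (of Plin2, Abhd5 and Plin5) and in 16.3% of all windows. TTGCNNAA, a C/EBP motif, was found in 2 of the 13 (Plin1 and Cidec) and in 10.8% of all windows. TGACG, a half-site of the cyclic AMP response element, was in 3 of the 13 (G0s2, Mgll and Abhd5) and in 20.8%. The full element TGACGTCA and the TATAAA box were in none of the 13 windows, as against 1.79% and 13.6% of all windows. All motifs were searched on both strands. A match is a description of the sequence, and 3′ counts do not tell which start is used.

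Other lipases and their regulators were measured as a list of 19 genes, of which 16 could be tested. Of these, 5 were lower, 4 higher and 7 did not pass the threshold, with a median log2 fold change of -0.14. With library size alone 4 were lower and 7 higher (median 0.28, all genes 0.45). With adipocyte marker scaling 3 were lower and 10 higher (median 0.67, all genes 0.84). Of all 12995 genes, 1371 were lower and 5891 higher with the first scaling, and 627 and 8395 with the second. Pnpla3, the closest relative of ATGL, had means of 182 ± 80.0 CPM (SD, n = 3) in WT and 23.6 ± 6.31 CPM in KO BAT (-2.97 ± 0.32, SE, adjusted p = 9.8e-05, edgeR). Ces1d, a carboxylesterase with triglyceride hydrolase activity, was at 860, 858 and 1010 CPM in the WT mice and at 86.3, 204 and 80.1 CPM in the KO mice (-2.88, and -3.45 without KO replicate 2), and Ddhd2, another intracellular lipase, fell by 2.25 on the log2 scale. On the other side, Nceh1, a hydrolase of cholesteryl esters and ether lipids, was at 1.40, 1.48 and 5.60 CPM in the WT mice and at 29.4, 47.2 and 42.1 CPM in the KO mice (3.85 ± 0.44, SE, adjusted p = 0.00013, edgeR, and 4.75 without WT replicate 3). Daglb, a diacylglycerol lipase, rose by 1.42 on the log2 scale. Hilpda, a further inhibitor of ATGL, rose from 28.2 ± 6.83 to 58.2 ± 4.67 CPM (1.05 ± 0.18, SE, adjusted p = 0.0013, edgeR), while G0s2 was lower. Hilpda remained far less abundant than G0s2, which was at 585 ± 118 CPM in KO BAT.

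Of 20 other lipid droplet proteins that could be tested, 12 were lower, 2 higher and 6 did not pass the threshold. Their median log2 fold change was -0.41. With library size alone 5 were lower and 2 higher (median 0.0065, all genes 0.45). With adipocyte marker scaling 2 were lower and 9 higher (median 0.40, all genes 0.84). Clstn3, whose locus also encodes a droplet protein of adipocytes from an internal start that 3′ counts cannot separate, was at 178, 185 and 180 CPM in the WT mice and at 3.73, 11.8 and 2.64 CPM in the KO mice (-5.02 ± 0.44, SE, adjusted p = 3.0e-05, edgeR, and -5.87 without KO replicate 2). Fitm2, which partitions triglyceride into droplets, fell by 1.12 on the log2 scale, and Mettl7a1, a droplet-associated methyltransferase, fell by 1.73. With adipocyte marker scaling Fitm2 was at -0.31 and did not pass the threshold. Spg20, which encodes spartin, rose by 2.31, and Mettl7b rose by 0.67 (adjusted p = 0.036, edgeR). The other perilipins and CIDE gene are named here after their values were seen. Plin4 was at 572 ± 30.0 and 420 ± 94.9 CPM (-0.45, adjusted p = 0.049), Plin3 at 164 ± 9.70 and 139 ± 20.5 CPM (-0.23, adjusted p = 0.16), and Cideb, a CIDE protein best known from liver, at 14 ± 4.31 and 7.38 ± 2.26 CPM (-0.91, adjusted p = 0.032). Plin3 and Plin4 were above 0 with adipocyte marker scaling (0.59 and 0.34) and Plin3 also with library size alone (0.19), and the calls of Plin4, Cideb and Mettl7b were lost in most fits that left out a mouse. Plin4 was at -0.030 with library size alone and at -0.059 after quantile normalization. Cideb lost the call with library size alone (-0.49) and with adipocyte marker scaling (-0.10).

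The relay that activates lipolysis runs from adrenergic receptors through cyclic AMP to protein kinase A. The list of it also held brakes and other receptors that act on it, and of its 28 genes that could be tested, 18 were lower, 4 higher and 6 did not pass the threshold, with a median log2 fold change of -0.88. The lower genes were thus not all activators. Named after their values were seen, they included the phosphodiesterases Pde3b (-1.45) and Pde4d (-1.48), which break down cyclic AMP, the antilipolytic receptors Adora1 (-1.19) and Ptger3 (-1.59), the insulin receptor Insr (-0.73) and the natriuretic peptide receptor Npr1 (-0.85). Insr was above 0 with adipocyte marker scaling (0.079, adjusted p = 0.72), where the calls of Adora1 (adjusted p = 0.11) and Npr1 (adjusted p = 0.89) were lost too. Insr and Npr1 also lost the call with library size alone (adjusted p = 0.099 and 0.063), and Ptger3 lost it without WT replicate 2 (adjusted p = 0.062), KO replicate 1 (adjusted p = 0.073) or KO replicate 3 (adjusted p = 0.066). With adipocyte marker scaling, 8 of the 28 genes were lower and 7 higher (median -0.061, all genes 0.84). Gnas, the stimulatory G protein, was at 7095, 7418 and 8123 CPM in the WT mice and at 1604, 1754 and 1738 CPM in the KO mice, and fell by 2.15 ± 0.15 on the log2 scale (SE, adjusted p = 1.1e-05, edgeR). Adrb3, the adrenergic receptor of adipocytes, was at 215, 245 and 343 CPM in the WT mice and at 26.0, 123 and 20.9 CPM in the KO mice, with KO replicate 2 again the highest of its group (-2.27 ± 0.59, SE, adjusted p = 0.011, edgeR, and -3.52 without that mouse). Adcy10, the soluble adenylyl cyclase, was low in both genotypes and had a log2 fold change of -2.22, or -3.28 without KO replicate 2. Akap12, an anchor of protein kinase A, rose by 1.64, Npr3, the clearance receptor of natriuretic peptides, rose by 0.80, and Gnai2, an inhibitory G protein, rose by 0.66. Npr3 lost the call without KO replicate 3 (0.66, adjusted p = 0.064, edgeR).

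Of 15 transcriptional regulators of these genes, 6 were lower and 9 did not pass the threshold. The median log2 fold change was -0.48. With adipocyte marker scaling 3 were lower and 4 higher (median 0.32, all genes 0.84). Mlxipl, which encodes ChREBP, was at 291, 318 and 409 CPM in the WT mice and at 69.5, 62.1 and 79.1 CPM in the KO mice (-2.27 ± 0.16, SE, adjusted p = 1.1e-05, edgeR). Foxo1, an activator of Pnpla2, fell by 1.69 with a wide spread among WT mice (549, 456 and 199 CPM), and Cebpa fell by 1.43 (-1.67 without KO replicate 2). Pparg, the main regulator of adipocyte genes, was at 515 ± 74.5 and 456 ± 110 CPM (-0.18, adjusted p = 0.47), and Ppara at 680 ± 31.7 and 487 ± 148 CPM (-0.48, adjusted p = 0.084), both named after their values were seen. With adipocyte marker scaling, Pparg was at 0.66 and Ppara at 0.37. Pparg and Cebpa themselves help to set that scaling, as 2 of the 8 markers. Pparg was also above 0 with library size alone (0.25) and after quantile normalization (0.22).

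**Figure D5:**
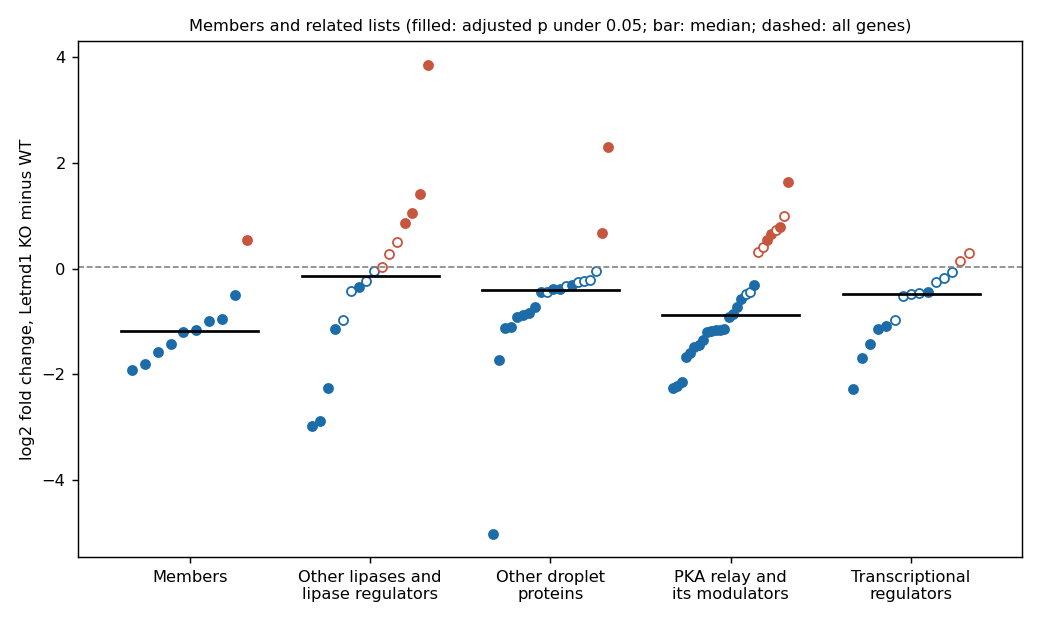
Log2 fold change (KO minus WT) of each tested gene of the 10 and of the 4 related lists, filled where the adjusted p was under 0.05, with a bar at the median of each list and a dashed line at the median of all genes (0.033). With TMM the medians are -1.18 for the 10 genes, -0.14 for other lipases, -0.41 for other droplet proteins, -0.88 for the protein kinase A relay and its modulators and -0.48 for the regulators. The medians of other lipases, other droplet proteins and regulators were above 0 with adipocyte marker scaling, as were the first of these and the droplet proteins with library size alone. They stayed below the median of all genes, which was 0.84 and 0.45 under these scalings.

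Markers of the cell types that the tissue could hold moved beside these genes. Of 8 adipocyte markers, 5 were lower and 3 did not pass the threshold, with a summed level between 30297 and 34924 CPM in WT mice and between 11190 and 16319 CPM in KO mice. Fabp4, the fatty acid carrier that led this sum, fell by 1.42 on the log2 scale, and Adipoq by 1.41. The call of Adipoq was lost after quantile normalization (-0.82, adjusted p = 0.082, limma), and with library size alone 5 adipocyte markers were lower and 2 higher. Of 10 brown adipocyte markers, 6 were lower and 1 higher. Of 6 white adipocyte markers, 2 were at 0 in every mouse and 3 could be tested. These 3 summed to between 67.3 and 120 CPM in WT mice and to 142, 467 and 185 CPM in the KO mice, and 2 of them were higher. Retn was at 1.79 (adjusted p = 0.025, edgeR) and Lep at 1.15 (adjusted p = 0.25) on the log2 scale. The call of Retn was lost without WT replicate 1 (adjusted p = 0.066) and without WT replicate 2 (adjusted p = 0.075), and Lep passed without WT replicate 3 (2.95, adjusted p = 0.0013). Skeletal muscle markers were at 10.9, 397 and 8.99 CPM in the WT mice and at 420, 305 and 1221 CPM in the KO mice, with 3 of 14 higher (Acta1 2.38, adjusted p = 0.15, and Myh4 2.10, adjusted p = 0.21). Without WT replicate 2, 13 muscle markers were higher, among them Acta1 (8.05, adjusted p = 0.00046, edgeR) and Myh4 (12.8, adjusted p = 0.00045, edgeR). Myh4 had 0 counts in the other WT mice, so its value has no fixed size. Without KO replicate 3, 0 muscle markers were higher. Endothelial markers summed to between 419 and 551 CPM in WT mice and between 307 and 373 CPM in KO mice, where 3 of 7 were lower and 1 higher (Kdr -0.99, adjusted p = 0.0032, and Pecam1 0.029, adjusted p = 0.85). These counts moved with the scaling, as did the median of all genes (0.45 with library size alone, 0.84 with adipocyte marker scaling). Endothelial markers had 1 lower and 2 higher with library size alone and 0 lower and 4 higher with adipocyte marker scaling, where Kdr was at -0.16 (adjusted p = 0.56), and 10 muscle markers were higher after quantile normalization and 14 with adipocyte marker scaling. Under the last scaling, 5 brown adipocyte markers were lower and 3 higher. All 13 macrophage markers were higher under each of these scalings. In the fit without WT replicate 2, the 9 lower genes passed the threshold and Plin2 did not (0.55, adjusted p = 0.061, edgeR). That mouse was the only WT mouse with muscle transcripts at that level. Leaving it out aligned muscle transcripts with genotype, so this fit cannot tell their part in these values. The part of other cell types in the values of the 10 genes was not tested.

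Likeness of pattern was measured as the root mean square distance of log2 CPM, centred on each gene's mean, over 6 mice and 11922 genes with a mean of at least 20 counts. The gene nearest to Pnpla2 was Hemk1 (distance 0.054), and the gene nearest to Lipe was Vapb (0.037). For Mgll it was Slc1a3 (0.074), for Abhd5 Bag4 (0.050), for G0s2 Tmem110 (0.087), for Plin1 Nfia (0.062), for Plin2 Adar (0.045), for Plin5 Pdhx (0.088) and for Cidea Me3 (0.081). Cidec had no gene as near, with Fdft1 at 0.17. Among the 10 genes themselves, the nearest pair was Abhd5 and Plin1 (0.13), followed by G0s2 and Plin5 (0.17), and the gene among them nearest to Plin2 was Lipe, only the 7299th of all. These distances are a description and share the scaling of the libraries.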

How the data were processed

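RNA-seq of BAT from 3 WT and 3 Letmd1 KO mice was analysed. The authors aligned their reads (single-end, 75 bases) by means of Bowtie2, took coverage of genes from unique and multiple alignments with bedtools (build mm10 per the submitters' processing notes) and deposited whole-number read counts for each mouse, without normalization. For their own analysis they name quantile normalization with edgeR, whereas the main fit here used TMM. Quantile normalization was run here with limma and need not match theirs. The annotation and the use of strand are not given in the sources used here. Because multiple alignments were counted, reads shared with similar copies can enter several rows.

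Counts were tested in R 4.3.3 with edgeR 4.0.16 (quasi-likelihood test, TMM, filterByExpr minimum count 10, minimum total 15, genotype alone), with Benjamini-Hochberg adjustment over 12995 genes and a threshold of 0.05. The samples are described as mice, 3 per genotype, and every pair of counts within a genotype differed beyond sampling noise, with a chi-square of 12.1 to 36.3 per degree of freedom. For ratios within a mouse, exact permutation tests (two-sided) were used. Alternatives were library size alone, quantile normalization with limma 3.58.1, scaling to adipocyte markers, DESeq2 1.42.0, no filter, a minimum mean of 50 counts, a 2-fold threshold, the replicate number as a block and each mouse left out in turn. The edgeR, quantile and DESeq2 fits were run on simulated counts in which few genes changed, equally many in each direction. Adipocyte marker scaling and the ratio tests were not covered. Such counts cannot tell which scaling suits these data, where 46.0% of genes passed with TMM.

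The 10 genes and all lists were chosen with earlier results of these data known. Named from related lists are the 3 most negative and the 3 most positive fold changes among genes past the threshold, and from marker lists the 2 most abundant genes. Further genes are marked where named.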

Additional observations from a re-analysis of the deposited data

How the results depend on the processing

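Pnpla2, Mgll, Cidea and Cidec passed the threshold in the same direction in all 13 alternatives run for them, and Abhd5, G0s2, Plin1 and Plin5 in 12. Plin2 passed in 10 and Lipe in 11, which for Lipe include quantile normalization, where it was higher in KO BAT. With library size alone, 1371 genes were lower and 5891 higher (81.1% of calls, beside 51.5% with TMM), and Lipe was at -0.078. The medians of other lipases (0.28), other droplet proteins (0.0065) and endothelial markers (0.082) changed sign but stayed below that of all genes (0.45). After quantile normalization 2 of the 10 genes were higher, since Lipe was at 0.33, and the log2 ratios to Pnpla2 were -0.066 for Abhd5 and -0.050 for Mgll. With adipocyte marker scaling, 9022 genes passed (627 lower and 8395 higher, 93.1% of calls), among them 5 of the 10 genes (4 lower), with Lipe at 0.31, Abhd5 at -0.17, G0s2 at -0.36, Plin1 at -0.19 and Plin5 at -0.33. The medians of other lipases (0.67), other droplet proteins (0.40), regulators (0.32) and endothelial markers (0.48) changed sign but stayed below that of all genes (0.84). The cause of these differences was not tested beyond the shift of the median of all genes. With a 2-fold change also required, 3048 genes passed (1149 lower and 1899 higher), among them 6 of the 10 genes, with 0 higher.

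Leaving out each mouse in turn gave a log2 fold change of Plin2 between 0.42 and 0.66 and a count of higher genes among the 10 between 0 and 1. The log2 ratio of Mgll to Pnpla2 ranged from -0.11 to 0.30, of Plin5 to Plin1 from -0.40 to 0.099 and of Cidec to Cidea from -0.97 to 0.33, and the log2 fold change of Pecam1 from -0.019 to 0.11. The genes named from the 4 related lists by their rank kept their direction in every alternative that tested them, and Mettl7b passed in 8 of 13. Fitm2 lost the call with adipocyte marker scaling (adjusted p = 0.25) and Npr3 without KO replicate 3 (adjusted p = 0.064). Of those added after their values were seen, Plin3 (0.19 with library size alone, 0.59 with adipocyte marker scaling), Pparg (0.25 and 0.66, and 0.22 after quantile normalization), Plin4 (0.34), Ppara (0.37) and Insr (0.079, these 3 with adipocyte marker scaling) changed sign. With the replicate number as a block, 5599 genes passed and all 10 genes kept their direction and call, while Retn (adjusted p = 0.0505), Plin4 (0.0515) and Cideb (0.0563) lost the call and Lep (1.70, adjusted p = 0.0096) and Ppara (-0.53, adjusted p = 0.036) gained it. The labels do not say that a number marks a shared litter or batch, and deviations of same-numbered mice correlated at 0.083, -0.12 and -0.10, so not every mouse was closest to its own number. With 3 mice per genotype, no exact test can go below p = 0.1.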
